A study of Homo sapiens with 6 samples.

Results

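The genes described here are the zinc finger (ZNF) genes of human chromosome 19, measured in U87 glioblastoma cells after treatment with a carborane-bearing amino acid. They were taken as every named transcript cluster of that chromosome whose annotated symbol is ZNF followed by a number and at most 1 letter from A to D, with the brightest cluster kept for each gene. This gave 233 genes, of 22411 genes tested in all. The rule used no measured change.

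Treated cells (3 arrays) had been given 1 mM of a carborane-bearing amino acid for 48 h, after 48 h of growth in EMEM medium with 10% serum and 1 mM pyruvate. Control cells (3 arrays) were labelled as having no treatment, and the labels name no vehicle. Their treatment protocol field nevertheless repeats the text of the treated samples, so which arrays are controls rests on the titles, source names and treatment labels. U87 is an established human glioblastoma line, so all 6 arrays share 1 genetic background, and carboranes are boron and carbon cages with hydrogen on each corner. The labels do not say whether replicates were separate cultures. The p-values therefore describe the spread among these 6 samples alone, part or all of which may be technical, and the number of arrays limits the precision. In such bulk samples, fewer expressing cells and less RNA per cell cannot be told apart.

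Most of these genes encode C2H2 zinc finger proteins with a KRAB domain. Their arrays of fingers read DNA sequence, often inside transposable elements, and the KRAB domain recruits the scaffold protein TRIM28 (KAP1). TRIM28 in turn brings the histone methyltransferase SETDB1, heterochromatin protein HP1 and histone deacetylases, which silence the bound locus. The family grew by tandem duplication, so that most members stand in clusters of related neighbours on chromosome 19, and only a minority have a function described gene by gene.

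More of the chromosome 19 ZNF genes rose than fell. In treated against control cells, 91 of the 233 rose and 16 fell at an adjusted p under 0.05 in limma with Benjamini-Hochberg adjustment over all genes, and 126 passed in neither direction. Among all genes tested, 24% rose and 21.6% fell, and 45.6% were called in either direction, beside 39.1%, 6.87% and 45.9% of the members. The members' median log2 change was 0.10, against 0.01 over all genes, and 162 of the 233 had a positive value. Every treated array lay above every control array for 107 members (all genes, 27.7%) and below for 18 (all genes, 25.8%). Of the members called, 81 rises and 10 falls were called with each array left out in turn. Large changes were few: 14 members rose and 1 fell by at least 1 on the log2 scale (all genes, 4.98% and 4.94%). The mean log2 signal over all 233 genes was 6.60, 6.60 and 6.59 in the treated arrays, and 6.35, 6.34 and 6.38 in the control arrays, so the arrays of each group lay close together and the groups did not overlap. With each array left out in turn, between 84 and 91 members rose and between 12 and 16 fell.

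The ZNF genes of the other chromosomes moved the same way. Of these 248 genes, 62.9% were called, 128 (51.6%) higher and 28 (11.3%) lower, with a median log2 change of 0.17. Their mean log2 signal was 7.16, 7.15 and 7.14 in treated arrays and 6.88, 6.87 and 6.88 in control arrays. The excess of rises was therefore seen in the family on other chromosomes too. The other 1248 genes of chromosome 19 showed no such excess, with 231 (18.5%) higher and 239 (19.2%) lower and a median of 0.00. The differences in share between these groups were not tested.

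The share that rose went with the level of the gene. Many of the members are dim in these cells: their median log2 signal was 6.16, against 6.86 for the ZNF genes of other chromosomes, and values of about 5 are close to array background. Of the 52 members with a mean log2 signal under 5, 2 rose and 2 fell (all genes at that level, 4.61% higher and 4.4% lower). From 5 to under 6, 6 of 52 rose and 4 fell (all genes, 11.9% and 14.3%). From 6 to under 7, 22 of 48 rose and 4 fell (all genes, 28.1% and 28.7%). From 7 to under 8, 28 of 42 rose and 3 fell (all genes, 38.8% and 32.7%), and from 8 to under 9, 17 of 21 rose and 2 fell (all genes, 42.5% and 36.1%). At 9 and over, 16 of 18 rose and 1 fell, whereas 44.4% of all genes at that level rose and 37.1% fell. The share called thus climbed with level in all genes too, in both directions, whereas below a signal of 6 the members' rises were close to those of all genes. Above the median level of all genes (6.12 on the log2 scale), 78 of 119 members rose (65.5%) and 10 fell (8.40%), with a median change of 0.48. At this level, 74.8% of all genes were called, 40.1% higher and 34.7% lower, and 67.1% of the ZNF genes of other chromosomes rose and 12% fell. Every treated array lay above every control array for 80 of the 119 members (all genes at this level, 43.2%) and below for 10 (all genes, 37.6%).

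**Figure D1:**
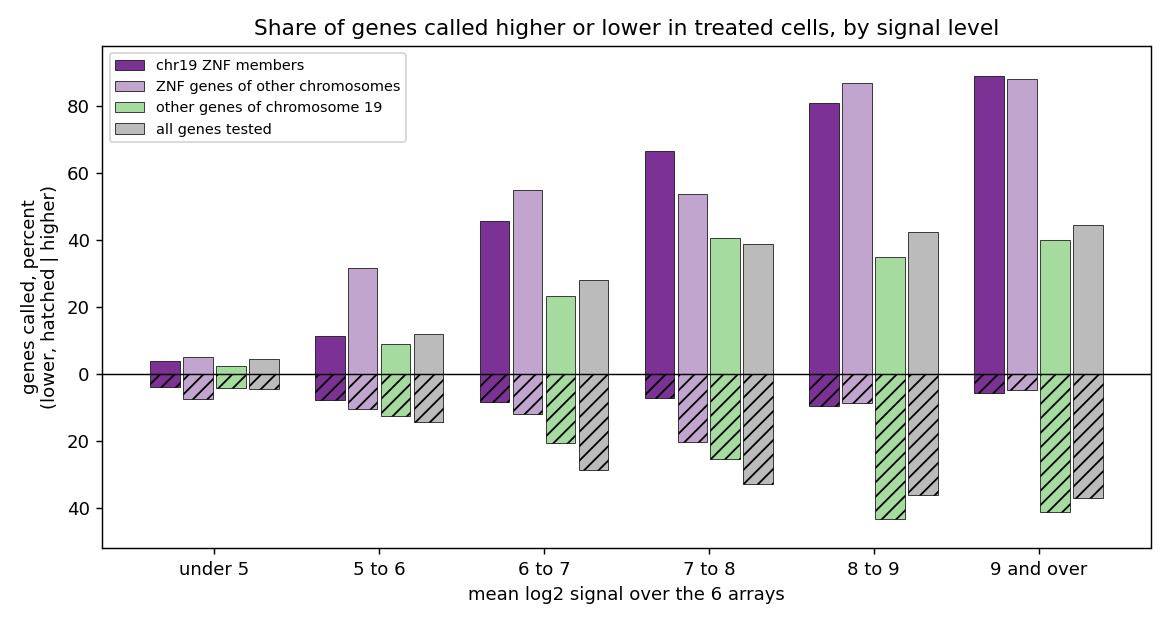
Percent of genes called higher (plain bars, upward) and lower (hatched bars, downward) in treated cells against control cells, by the mean log2 signal over the 6 arrays, for chromosome 19 ZNF genes, ZNF genes of other chromosomes, other genes of chromosome 19 and all genes tested. At a signal of 9 and over, 88.9% of chromosome 19 ZNF genes and 88.1% of the other ZNF genes rose, against 44.4% of all genes.

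The 3 largest rises were neighbours. ZNF805, ZNF460 and ZNF543 follow each other on the long arm near its end, in the GRCh38.p14 RefSeq gene table. The log2 signal of ZNF805 was 11.46, 11.54 and 11.51 in treated arrays and 9.33, 9.33 and 9.12 in control arrays, a log2 change of 2.24 (SE 0.0672, adjusted p = 4.0e-07 in limma). ZNF460 had 11.62, 11.82 and 12.01 in treated arrays and 9.76, 9.59 and 9.67 in control arrays, a log2 change of 2.14 (SE 0.101). ZNF543 had 9.91, 9.74 and 9.88 in treated arrays and 8.17, 8.05 and 8.05 in control arrays, a log2 change of 1.75 (SE 0.0622). In all 3 genes each treated array was more than 1.5 log2 units above each control array. The next member on either side, ZNF264 and ZNF304, rose less, by 0.38 and 0.53. ZNF304 is a KRAB protein reported to recruit a silencing complex to the INK4-ARF locus.

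The promoters of these 3 genes, which moved together, are printed from 250 bases before to 50 after the start in RefSeq (GRCh38.p14), 5′ to 3′ on the plus strand of each gene. They lie at chr19:57240382-57240681 (ZNF805), chr19:57279732-57280031 (ZNF460) and chr19:57320222-57320521 (ZNF543). Capitals mark exact matches, on either strand, to 3 motifs. These are the CCAAT box, the core CGGAAG read by ETS factors, and TGACGT, a part of the cAMP response element.
ZNF805: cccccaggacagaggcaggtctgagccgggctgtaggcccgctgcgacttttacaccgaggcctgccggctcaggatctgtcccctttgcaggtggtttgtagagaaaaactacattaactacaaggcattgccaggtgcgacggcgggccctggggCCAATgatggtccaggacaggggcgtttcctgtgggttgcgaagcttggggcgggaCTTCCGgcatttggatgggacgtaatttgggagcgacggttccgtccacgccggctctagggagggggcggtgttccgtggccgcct
ZNF460: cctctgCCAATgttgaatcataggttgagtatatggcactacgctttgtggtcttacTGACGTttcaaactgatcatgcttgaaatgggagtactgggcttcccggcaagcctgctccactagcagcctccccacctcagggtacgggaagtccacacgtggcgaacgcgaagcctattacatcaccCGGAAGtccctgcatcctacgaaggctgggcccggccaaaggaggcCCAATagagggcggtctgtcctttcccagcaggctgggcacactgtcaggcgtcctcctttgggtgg
ZNF543: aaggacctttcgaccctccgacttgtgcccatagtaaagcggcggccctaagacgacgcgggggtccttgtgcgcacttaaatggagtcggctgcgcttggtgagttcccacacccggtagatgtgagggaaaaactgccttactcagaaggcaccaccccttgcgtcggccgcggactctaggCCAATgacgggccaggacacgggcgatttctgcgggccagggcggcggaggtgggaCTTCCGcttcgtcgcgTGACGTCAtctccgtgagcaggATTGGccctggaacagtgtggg
All 3 hold a CCAAT and a CGGAAG, and ZNF460 and ZNF543 also hold a TGACGT. In ZNF543 the TGACGT matches of both strands overlap just after the start. Without gaps, at the best of the offsets tried for each pair, the 3 sequences were identical at 29.7% to 30.3% of bases. Such a figure over whole sequences does not bring out a local match between ZNF805 and ZNF543. CCAAT and CGGAAG stood at -93 and -37 in ZNF805 and at -66 and -10 in ZNF543, on the same strands and equally far apart. The bases between them are similar, so the promoters of ZNF805 and ZNF543 cannot be taken as independent examples.

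Over the 203 members with a promoter in that table, CGGAAG stood in 57.1%, against 44.7% of the ZNF genes of other chromosomes, 25.9% of protein-coding genes tested and 19.9% of all promoters. It stood in 55 of 79 members that rose (69.6%), 7 of 14 that fell and 54 of 110 that were not called (49.1%). TGACGT stood in 15 of 79 members that rose (19%), in 0 of 14 that fell and in 6 of 110 that were not called (5.45%), against 9.69% of protein-coding genes and 8.32% of all promoters. With every listed start of a gene in place of the most upstream one, TGACGT was in 16 of 89 promoters of members that rose, 0 of 17 that fell and 14 of 146 not called. CCAAT stood in 40 of 79 members that rose (50.6%), 12 of 14 that fell (85.7%) and 54 of 110 not called (49.1%), against 35.7% of all promoters. The members that fell include those of the cluster from ZNF101 to ZNF254, described below, where all 26 promoters held it. Of the other motifs searched, the GC box GGGCGG stood in 70.9% of members that rose, 64.3% of those that fell and 67.3% of those not called (all promoters, 44.5%). TTTGAA, part of the cell-cycle homology region, stood in 10.1%, 14.3% and 11.8% of the same classes (all promoters, 15.5%), and ATGGCG, a core read by YY1, in 21.5%, 21.4% and 16.4% (all promoters, 11%). These matches are descriptions of the sequence, and the factors were not measured at these sites.

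Other rises of at least 1 log2 unit came from several clusters. ZNF615 had 8.41, 8.33 and 8.32 in treated arrays and 6.81, 6.84 and 6.89 in control arrays, a log2 change of 1.51. ZNF841 had 10.56, 10.61 and 10.71 in treated arrays and 9.39, 9.11 and 9.21 in control arrays, a change of 1.39. Both lie in a stretch of 6 neighbouring members that all rose, with log2 changes of 0.62 for ZNF350, 0.67 for ZNF614, 1.01 for ZNF432 and 0.66 for ZNF616. ZNF550 rose by 1.38, with 7.87, 7.92 and 7.67 in treated arrays and 6.45, 6.55 and 6.32 in control arrays. ZNF558, a KRAB gene that in human neural progenitors controls the mitochondrial gene SPATA18, rose by 1.36, with 8.84, 8.73 and 8.74 in treated arrays and 7.51, 7.30 and 7.43 in control arrays. The neighbours ZNF181 and ZNF302 rose by 1.26 and 1.09, ZNF581 by 1.23 and ZNF791 by 1.06. ZNF791 is among the brightest members, at 11.60, 11.61 and 11.68 in treated arrays and 10.58, 10.59 and 10.53 in control arrays. ZNF404 rose by 1.07, with the widest control spread of the 12 (7.49, 7.28 and 7.63 in treated arrays, 6.34, 6.07 and 6.77 in control arrays, adjusted p = 0.00204 in limma).

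**Figure D2:**
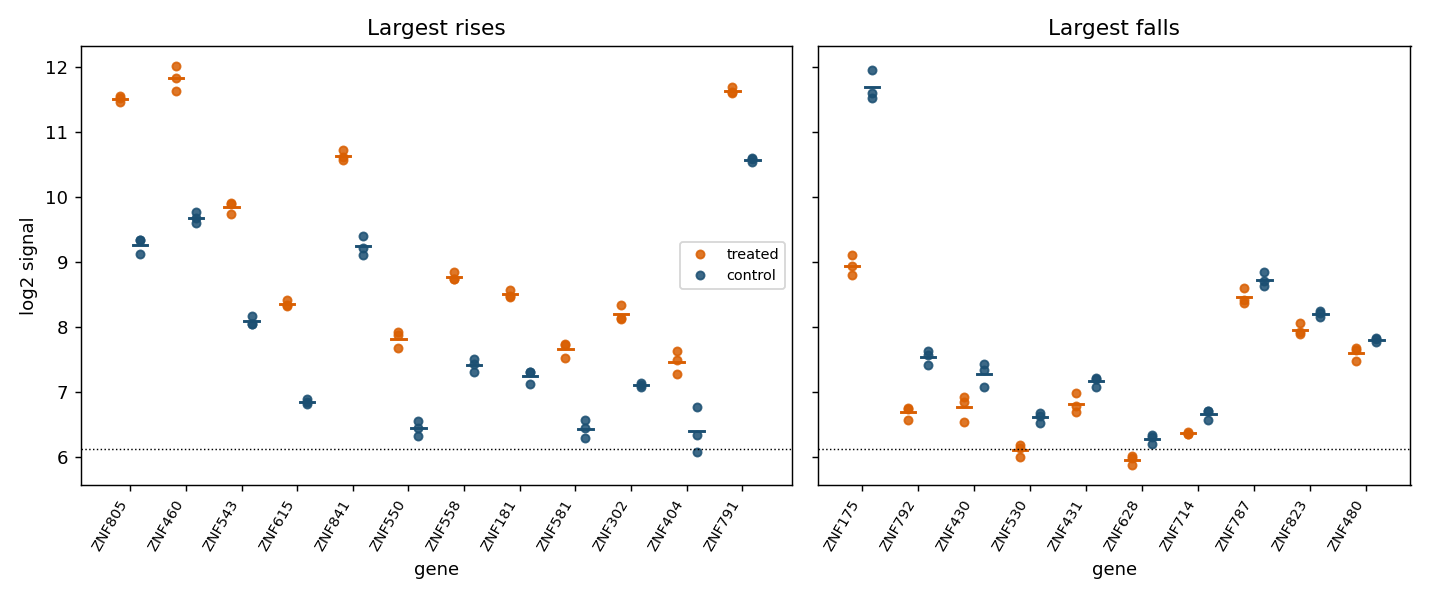
Log2 signal on each array (points) and group mean (bars) for the 12 largest rises and the 10 falls among called members above the median level, treated cells left of control cells for each gene; the dotted line is the median level of all genes tested, 6.12. The 22 genes were chosen for having no overlap between groups, and ZNF175 lies apart from the other falls.

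The largest change of any member was a fall. ZNF175 (OTK18), a KRAB gene known as a suppressor of HIV-1 in brain macrophages, had 8.93, 9.10 and 8.79 in treated arrays and 11.59, 11.51 and 11.95 in control arrays, a log2 change of -2.74 (SE 0.13, adjusted p = 3.05e-06 in limma). It was the only member to fall by at least 1 on the log2 scale. ZNF175 stands alone rather than in a cluster, since more than 3 other protein-coding genes separate it from its nearest members. Its promoter is shown as that of the member that stood furthest from the rest (chr19:51571033-51571332, plus strand, RefSeq, GRCh38.p14), with the same motifs in capitals.
ZNF175: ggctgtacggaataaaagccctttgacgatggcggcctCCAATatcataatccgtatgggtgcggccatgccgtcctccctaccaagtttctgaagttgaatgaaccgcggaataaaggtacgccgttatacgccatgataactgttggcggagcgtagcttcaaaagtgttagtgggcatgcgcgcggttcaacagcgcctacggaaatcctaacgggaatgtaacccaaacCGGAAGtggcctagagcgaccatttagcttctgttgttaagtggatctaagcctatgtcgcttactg
It holds 1 CCAAT and 1 CGGAAG and no TGACGT. Its GC content was 50.7%, against a median of 60.3% over the members.

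The other falls above the median level were small. ZNF792 had 6.73, 6.57 and 6.75 in treated arrays and 7.41, 7.57 and 7.63 in control arrays, a log2 change of -0.85. ZNF530 fell by 0.51, with 6.18, 6.13 and 6.00 in treated arrays and 6.63, 6.52 and 6.68 in control arrays, inside a stretch of neighbours that rose. ZNF628 and ZNF823 fell, with changes of -0.32 and -0.24. ZNF787 and ZNF480 had changes of -0.27 and -0.20 whose calls were lost with single arrays left out (adjusted p up to 0.0971 and 0.0989 in limma). Among bright members that did not pass, ZNF507 had 9.51, 9.59 and 9.46 in treated arrays and 9.55, 9.60 and 9.49 in control arrays. ZNF574, ZNF428, ZNF526 and ZNF440 had log2 changes between -0.13 and 0.09.

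The members fall into 27 runs of neighbours along the chromosome, a run ending where more than 3 other protein-coding genes intervene. Of these, 12 hold a single member, and the 6 runs with at least 10 hold 184 of the 233. Within runs there were 206 pairs of adjacent members. Both were called in 59 pairs, and in 52 of the 59 they moved in the same direction, in a set where 91 of 107 called members rose.

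**Figure D3:**
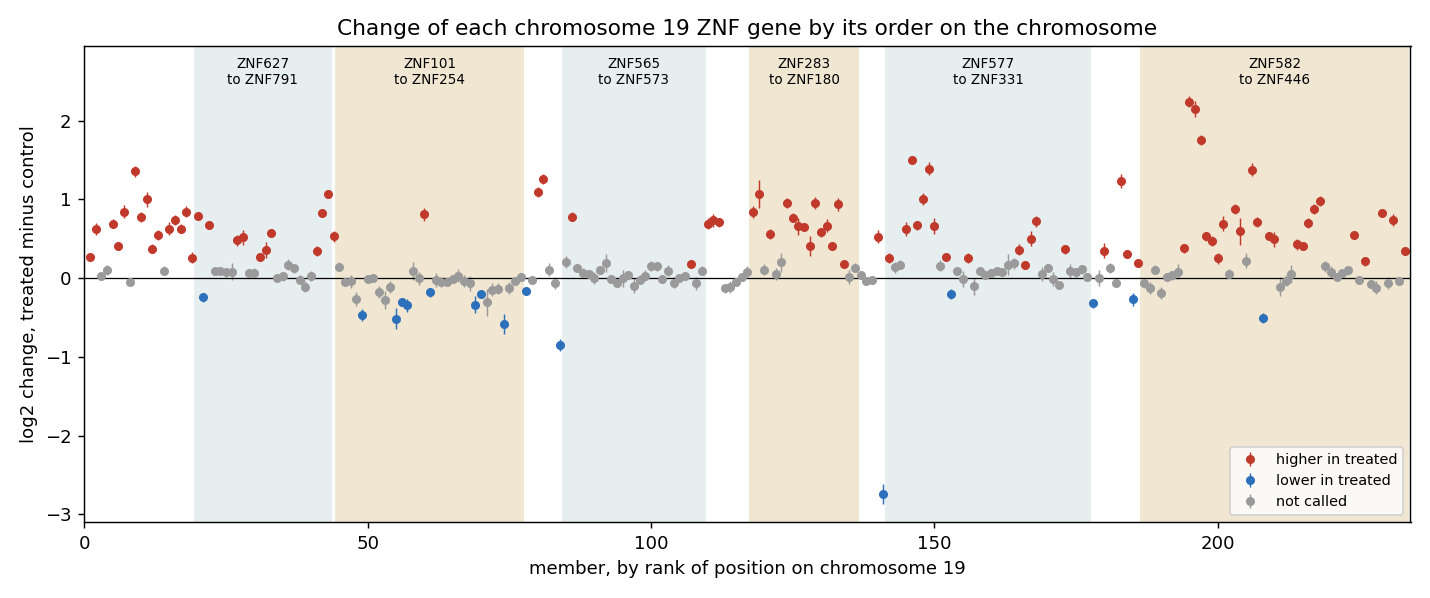
Log2 change, treated minus control, of each of the 233 members (point, with its standard error) by rank of position along chromosome 19, coloured by call; shaded bands are the 6 runs of at least 10 members. In the band from ZNF283 to ZNF180 14 of 19 members rose, in the band from ZNF101 to ZNF254 8 of 33 fell and 1 rose, and the band from ZNF565 to ZNF573 lies near 0.

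The run from ZNF283 to ZNF180 rose most evenly. All 19 of its members had a positive log2 change (except ZNF229 with centred arrays, at -0.0067, with repeated quantile normalization, at -0.0028, and with some single arrays left out), 14 rose, none fell, and the median was 0.58. Of the 16 members above the median level 12 rose, beside 40.1% of all genes at that level, and 2 of the 3 dimmer ones rose, beside 7.83% of all genes at or below it. Outside the run, 77 of 214 members rose and 16 fell. ZNF234 had 8.23, 8.42 and 8.22 in treated arrays and 7.32, 7.24 and 7.44 in control arrays, and rose by 0.96. ZNF235 had 7.38, 7.30 and 7.18 in treated arrays and 6.38, 6.19 and 6.48 in control arrays, and rose by 0.94. ZNF222, at or below the median level, rose by 0.96, with 6.67, 6.45 and 6.50 in treated arrays and 5.60, 5.57 and 5.57 in control arrays. ZNF224, a KRAB repressor of the aldolase A gene that also binds WT1, rose by 0.65. ZNF45, ZNF155, ZNF230, ZNF229 and ZNF180 did not pass, with changes of 0.02 to 0.20. The members of this run may be similar in sequence, which was not compared here, so their signals may not be independent. CGGAAG stood in 13 of its 15 promoters (86.7%) and CCAAT in 4 (26.7%).

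In the run from ZNF101 to ZNF254, falls outnumbered rises. This is the large cluster of the short arm next to the centromere, most of whose genes arose in primates. Of its 33 members 8 fell and 1 rose, 24 passed in neither direction, and only 5 had a positive value. The share that fell, 24.2%, was close to the 21.6% of all genes, and the share that rose, 3.03%, lay below their 24%. Outside the run, 8 of 200 members fell and 90 rose. Its mean log2 signal was 5.53, 5.52 and 5.50 in treated arrays and 5.62, 5.60 and 5.66 in control arrays, so the groups did not overlap although the median change was only -0.06. The run is dim, with a median signal of 5.56 and 7 members above the median level of all genes, of which 3 fell and none rose (all genes at this level, 34.7% lower and 40.1% higher). Of the 26 dimmer members 5 fell and 1 rose (all genes at or below the median level, 8.54% and 7.83%). Of the 8 falls, 5 were called with each array left out in turn, and between 6 and 9 members fell in those fits.

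The 3 brighter members that fell were the neighbours ZNF430, ZNF714 and ZNF431. ZNF430 had 6.84, 6.92 and 6.53 in treated arrays and 7.07, 7.43 and 7.33 in control arrays, a log2 change of -0.51 (adjusted p = 0.0146 in limma, and 0.0503 without control replicate 3 and 0.0502 without control replicate 2). ZNF714 had 6.38, 6.36 and 6.35 in treated arrays and 6.71, 6.57 and 6.71 in control arrays, a change of -0.30. ZNF431 had 6.98, 6.78 and 6.69 in treated arrays and 7.21, 7.07 and 7.20 in control arrays, a change of -0.34. Of the dimmer falls, ZNF675 (TIZ), an inhibitor of TRAF6 signalling, had 5.25, 5.00 and 5.55 in treated arrays and 5.85, 5.84 and 5.85 in control arrays, a change of -0.58. ZNF93, which represses LINE-1 elements, fell by 0.47, with 5.07, 5.08 and 4.95 in treated arrays and 5.44, 5.40 and 5.66 in control arrays. ZNF99 fell by 0.21. ZNF492 and ZNF429 had changes of -0.34 and -0.18, with calls lost when single arrays were left out (adjusted p up to 0.119 and 0.13 in limma). ZNF493, close by, rose by 0.81, with 6.10, 6.27 and 6.32 in treated arrays and 5.53, 5.43 and 5.29 in control arrays.

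The promoters of the 3 brighter falls are shown because they share an arrangement found in much of this run. They lie at chr19:21020407-21020706 (ZNF430), chr19:21081953-21082252 (ZNF714) and chr19:21141790-21142089 (ZNF431), all on the plus strand (RefSeq, GRCh38.p14), with the same motifs in capitals.
ZNF430: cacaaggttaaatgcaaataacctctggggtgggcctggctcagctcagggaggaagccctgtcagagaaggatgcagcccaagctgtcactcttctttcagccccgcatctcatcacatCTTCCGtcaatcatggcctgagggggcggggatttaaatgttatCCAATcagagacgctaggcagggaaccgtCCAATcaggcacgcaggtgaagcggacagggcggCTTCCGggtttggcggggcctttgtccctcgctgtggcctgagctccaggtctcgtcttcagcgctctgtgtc
ZNF714: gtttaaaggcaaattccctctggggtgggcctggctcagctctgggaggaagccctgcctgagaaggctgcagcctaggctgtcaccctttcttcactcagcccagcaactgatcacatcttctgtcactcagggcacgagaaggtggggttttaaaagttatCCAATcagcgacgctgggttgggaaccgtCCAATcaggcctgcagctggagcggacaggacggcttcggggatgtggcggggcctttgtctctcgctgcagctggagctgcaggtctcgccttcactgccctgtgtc
ZNF431: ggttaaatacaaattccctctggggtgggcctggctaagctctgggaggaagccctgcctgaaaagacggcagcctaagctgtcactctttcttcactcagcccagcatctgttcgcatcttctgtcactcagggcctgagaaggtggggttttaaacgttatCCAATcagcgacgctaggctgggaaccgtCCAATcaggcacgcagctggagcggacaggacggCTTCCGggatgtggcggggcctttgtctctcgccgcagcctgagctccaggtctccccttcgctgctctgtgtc
Each holds a pair of CCAAT boxes whose first bases are 29 bases apart, at -86 and -57 from the start in ZNF430 and at -87 and -58 in ZNF714 and ZNF431. At the best of the offsets tried, without gaps, ZNF714 and ZNF431 were identical at 91% of bases. ZNF430 was identical to them at 53.5% and 55.9%, so these promoters cannot be taken as independent examples. CCAAT stood in all 26 promoters of the run that are in the table (100%; 26 of 27 with every listed start), against 52.2% over all members, 42.2% of ZNF genes of other chromosomes, 36.4% of protein-coding genes tested and 35.7% of all promoters. A pair at this spacing on the same strand, a feature chosen after the promoters were read, stood in 14 of the 26 (53.8%) and in no member outside the run, against 5.03% of ZNF genes of other chromosomes, 0.445% of protein-coding genes tested and 0.311% of all promoters. Of the 14 members with it, 4 fell (ZNF430, ZNF714, ZNF431 and ZNF675), 1 rose (ZNF493) and 9 were not called, among them ZNF90, ZNF85 and ZNF43. The arrangement marked the run and did not separate its members by call.

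The remaining long runs were mixed. Beside the counts that follow, 24% of all genes rose and 21.6% fell, with 40.1% higher above the median level and 7.83% higher at or below it. From ZNF582 to ZNF446, near the end of the long arm, 24 of 47 members rose and 1 (ZNF530) fell, with a median change of 0.22, and 21 of its 27 members above the median level rose. Among its dimmer members ZNF773 had a change of 0.59, with 6.84, 6.20 and 6.20 in treated arrays and 5.87, 5.72 and 5.87 in control arrays, and its call was lost without any of the control arrays. From ZNF577 to ZNF331, 14 of 36 rose and 1 (ZNF480) fell, with a median of 0.15, and 13 of 18 above the median level rose. From ZNF627 to ZNF791, 10 of 24 rose and 1 (ZNF823) fell, with a median of 0.11, and 7 of 12 above the median level rose. From ZNF565 to ZNF573, 2 of 25 rose and none fell. Its median signal of 4.67 was the lowest of the 6 long runs, and only ZNF565 and ZNF146 were above the median level. The 2 rises there were ZNF146 and ZNF781, a transcribed pseudogene with a change of 0.18 whose call was lost without any of 3 arrays, and 6 members rose without control replicate 3 but 1 without control replicate 2. Of the shorter runs, that from ZNF317 to ZNF562 had 8 of 9 members higher, with a median change of 0.63, and ZNF546, ZNF780B and ZNF780A all rose, by 0.69, 0.74 and 0.71. ZNF780A and ZNF780B are near copies, so their signals cannot be taken as independent.

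Of the other short runs, ZNF554 to ZNF77 had 3 of 5 members higher and ZNF302 to ZNF792 had 2 of 5 higher and 1 lower. Beside these and the counts that follow, 24% of all genes rose and 21.6% fell. ZNF579 to ZNF580 had 3 of 6 higher, and ZNF787 to ZNF444 had 1 of each, both calls being lost without some single arrays. None of the 5 members from ZNF574 to ZNF526 and from ZNF575 to ZNF428 was called. Of the 12 members that stand alone, 6 rose: ZNF557 by 0.41, ZNF358 by 0.85, ZNF558 by 1.36, ZNF653 by 0.26, ZNF333 by 0.53 and ZNF473 by 0.53. All 6 were above the median level, where 40.1% of all genes and 65.5% of members rose. ZNF653 was not called without control replicate 3 (adjusted p = 0.055 in limma). ZNF175 and ZNF628 fell. ZNF414, ZNF296, ZNF541 and ZNF114 did not pass, with changes of -0.05 to 0.04.

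Members with a described role were looked at as lists. Of 8 members listed for an individual function, not all the members with one, 6 rose and 2 fell, and the median change was 0.54. Over all members 39.1% were higher and 6.87% lower, and over all genes 24% and 21.6%. Of the 8, 5 were above the median level, where 65.5% of members and 40.1% of all genes rose. ZNF146 (OZF), a protein made almost wholly of fingers, was the brightest member, at 13.40, 13.56 and 13.50 in treated arrays and 12.76, 12.68 and 12.67 in control arrays, and rose by 0.78. ZNF274, which brings SETDB1 to the 3′ ends of other ZNF genes, had 6.30, 6.24 and 6.42 in treated arrays and 5.77, 5.78 and 5.77 in control arrays, and rose by 0.55. ZNF350 (ZBRK1), a BRCA1 partner that represses GADD45A, rose by 0.62. ZNF473 (ZFP100), which acts in 3′ processing of histone transcripts, rose by 0.53, as did ZNF304, while ZNF224 rose by 0.65. The falls were ZNF675 and ZNF536, a repressor of neuronal differentiation. ZNF536 lay near background, at 4.34, 4.24 and 4.28 in treated arrays and 4.46, 4.43 and 4.45 in control arrays, and its call was lost without any of 4 arrays.

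Repressors of transposable elements showed no common direction. Of 7 with a row of their own, 1 rose (all genes, 24%), 1 fell (all genes, 21.6%) and 5 did not pass. The median change was 0.04, and only 3 of the 7 were above the median level of all genes. ZNF417, a repressor of HERV-K, had 8.40, 8.37 and 8.45 in treated arrays and 7.31, 7.44 and 7.53 in control arrays, and rose by 0.98. ZNF93 was the fall. ZNF91, which represses SVA elements, had 5.96, 5.93 and 5.99 in treated arrays and 5.97, 6.22 and 6.09 in control arrays, and did not pass (adjusted p = 0.162 in limma, but 0.0417 without control replicate 1). ZNF649, ZNF808, ZNF765 and ZNF793 had log2 changes of 0.14, 0.04, 0.08 and 0.00, with overlapping groups in each.

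Genes known for promoter methylation in tumours were mostly near background. Of 9 measured, 1 rose and 8 did not pass, beside 24% higher and 21.6% lower over all genes. Only 1 was above the median level, and at or below it 7.83% of all genes rose and 8.54% fell. ZNF132 rose by 0.74, with 6.54, 6.73 and 6.48 in treated arrays and 5.77, 5.84 and 5.91 in control arrays. The other 8, ZNF154, ZNF331, ZNF382, ZNF418, ZNF471, ZNF667, ZNF671 and ZNF677, had mean log2 signals of 5.26 or less and changes between -0.19 and 0.15. ZNF471 passed without treated replicate 2 and ZNF418 without control replicate 1.

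C2H2 genes of chromosome 19 with other names were set beside the members. Of 16 with a row of their own, 3 rose (all genes, 24%) and none fell (all genes, 21.6%). The other 13 did not pass, the median change was 0.00, and 5 of the 16 were above the median level. At or below that level, 7.83% of all genes rose and 8.54% fell. MZF1, a myeloid transcription factor, rose by 0.69, with 6.37, 6.58 and 6.70 in treated arrays and 6.05, 5.75 and 5.77 in control arrays, and ZSCAN5A rose by 0.48. ZSCAN22 had a change of 0.18 with a call lost when single arrays were left out (adjusted p up to 0.142 in limma). ZBTB7A, a repressor of fetal globin genes, had the highest level of the list and a change of 0.01.

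Genes of the machinery that KRAB zinc finger proteins recruit were listed with other chromatin genes, and most of the list fell. The largest falls, of UHRF1, DNMT1 and SUV39H1, were of genes outside the complex described above. Of 22 genes measured from a list of 24, 17 fell (all genes, 21.6%), 4 rose (all genes, 24%) and 1 did not pass. All 22 were above the median level, where 34.7% of all genes fell and 40.1% rose. Their median log2 change was -0.59, against 0.10 for the members. TRIM28, the scaffold bound by the KRAB domain, had 11.78, 11.59 and 11.64 in treated arrays and 12.47, 12.58 and 12.55 in control arrays, a change of -0.86 (adjusted p = 2.37e-05 in limma). The HP1 genes CBX1 and CBX3 fell, with changes of -0.63 and -1.08. SETDB1 had a change of 0.14, with 7.85, 7.87 and 7.89 in treated arrays and 7.78, 7.67 and 7.73 in control arrays, and its call was lost without any of 5 arrays. Its partners ATF7IP and RESF1 rose by 0.88 and 0.77. ATF7IP had 13.10, 13.08 and 13.14 in treated arrays and 12.27, 12.15 and 12.25 in control arrays.

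In the HUSH complex, which spreads silencing over transposons, TASOR and PPHLN1 fell, each with a change of -0.58, and MPHOSPH8, with a change of 0.09, did not pass. MORC2, an ATPase that works with HUSH, rose by 0.33. The NuRD genes CHD4, CHD3, HDAC1 and HDAC2 fell, with changes of -0.93, -0.60, -1.39 and -0.20. Of the other histone H3 lysine methyltransferases, SUV39H1, SUV39H2 and EHMT2 fell, with changes of -1.84, -1.21 and -0.33. EHMT1 had a change of -0.13, and its call was lost without any of 5 arrays. The maintenance DNA methyltransferase DNMT1 had 10.20, 10.18 and 10.25 in treated arrays and 12.70, 12.69 and 12.74 in control arrays, a change of -2.50. UHRF1, which brings DNMT1 to replicating DNA, had 6.79, 6.82 and 6.88 in treated arrays and 9.87, 10.15 and 9.96 in control arrays, a change of -3.16. The remodeller SMARCAD1 and the modifier SUMO2 fell, with changes of -0.32 and -0.81. Protein levels and silencing itself were not measured.

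**Figure D4:**
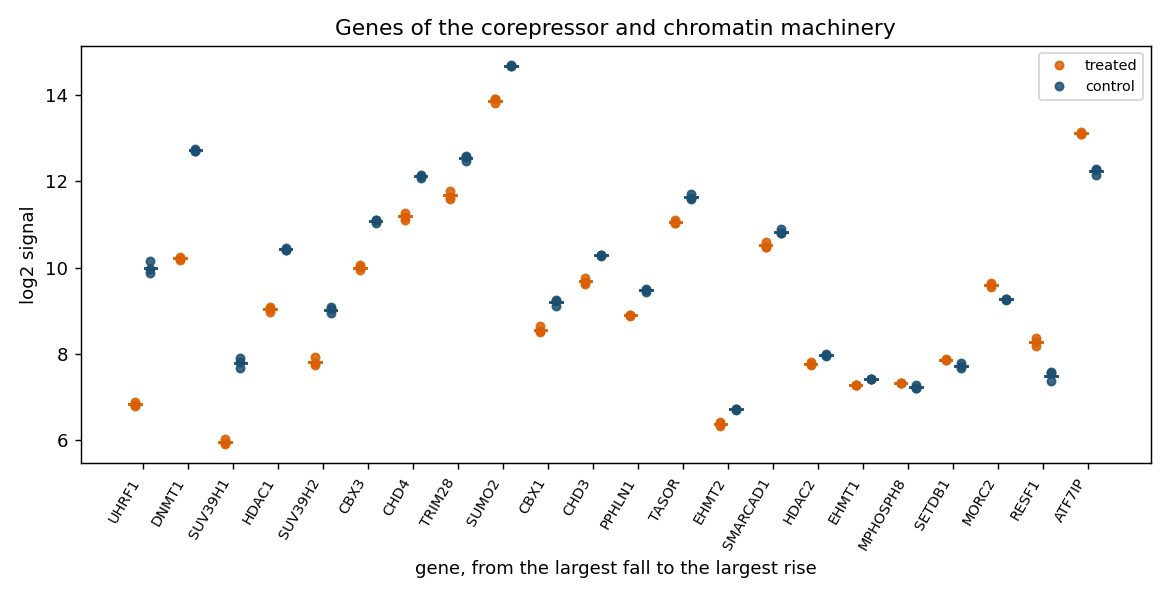
Log2 signal on each array (points) and group mean (bars) for 22 genes of the corepressor and chromatin machinery, treated cells left of control cells for each gene, ordered from the largest fall to the largest rise. UHRF1 and DNMT1 lie at the left with the largest falls, and ATF7IP at the right with the largest rise.

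For the arrays as a whole, log2 signals of all genes correlated at 0.998 within groups and at 0.959 to 0.963 between them, across genes, which are not independent replicates. Of 9 glioblastoma line markers measured, 7 were above the median level, whereas GFAP and S100B lay near background at 5.49 and 5.18. CHI3L1, NES, ANXA2, CAV1 and VIM fell, with log2 changes of -2.86, -1.89, -1.16, -1.05 and -0.70, while CD44 and EGFR rose by 0.44 and 0.12. Markers of other cell types were near background, apart from the endothelial KDR. The summed log2 signal was 18.59 to 18.91 in treated arrays and 18.77 to 18.90 in control arrays for 4 immune markers, none of them called. For 4 epithelial markers, of which EPCAM was lower, it was 19.02 to 19.35 in treated arrays and 19.32 to 19.36 in control arrays. For 3 hepatocyte markers, none of them called, it was 14.70 to 15.19 in treated arrays and 14.49 to 14.64 in control arrays. For 4 endothelial markers it was 19.24 to 19.47 in treated arrays and 21.54 to 21.72 in control arrays, KDR being lower (5.90 in treated arrays, 8.08 in control arrays), while PECAM1, CDH5 and VWF had mean log2 signals of 3.62, 4.85 and 5.00.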

How the data were processed

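Total RNA (100 ng, integrity number above 8, per the labels' protocols) was hybridised to 6 Affymetrix whole-transcript arrays. The deposited table holds 1 log2 signal for each transcript cluster and array. Per the submitters' processing notes, the authors used RMA and Transcriptome Analysis Console 4.0.1.36. RMA forces all arrays to one distribution, so a change in total RNA per cell cannot be seen. Between 181 and 196 values per array exceed 16, above the range of a 16-bit scanner, so log2 changes may be stretched. No gene was called absent, since the table used here gives signals only.

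Of 67528 rows, 23781 had 1 symbol in the platform annotation, 1543 several and 42204 none. The row with the highest mean was kept for each of 22411 genes. The 233 members come from 235 rows, and ZNF77 and ZNF529 had a further row each. All 233 lie on chromosome 19 in the RefSeq gene table (GRCh38.p14), which gave their order. The build of the array's annotation was not given in the sources used. Near-identical members (such as ZNF780A and ZNF780B, ZNF585A and ZNF585B, ZNF324 and ZNF324B) may share signal.

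The comparison was fitted in R 4.3.3 with limma 3.58.1 (4 residual and 2.75 prior degrees of freedom) on all genes with no filter, with calls at an adjusted p (Benjamini-Hochberg) under 0.05. Standard errors are those of the fit. In simulated data on 22411 genes, 15, 32, 46 and 48 of 50 genes were recovered at log2 changes of 0.25, 0.5, 1 and 2, with 3 false calls. With no change, 0 were called. Only 50 genes at each size were changed in the simulation, whereas 45.6% of genes were called in the data. The recoveries therefore do not describe the power in these data. Members, lists, motifs and named genes were chosen with earlier results of these data known. Named genes were the 12 largest rises and falls above the median level with no overlap between groups (10 falls qualified), the 5 brightest members not called, the 3 largest changes each way among dimmer members, all list genes, the ends of runs and the largest change each way in long runs. ZNF45, ZNF155, ZNF230, ZNF234, ZNF235, ZNF229, ZNF429, ZNF99, ZNF614, ZNF432, ZNF616, ZNF264, ZNF90, ZNF85, ZNF43, ZNF780B and ZNF781 were named after their values were seen. Promoters are from RefSeq, with the most upstream start of each gene, and matched 203 members by symbol. Motifs were searched as exact letters on both strands. Protein sequences were not used here, so KRAB domains and fingers were not counted. Other settings were a replicate block, each array left out, a level filter, other row choices, centring, repeated quantile normalization, array weights, trend with robust estimation, a minimum change, a compressed scale, protein-coding genes and updated symbols. Counts per run under some of these were added after the data were seen. Figures were drawn with matplotlib 3.10.9.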

Additional observations from a re-analysis of the deposited data

How the results depend on the processing

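In the 18 other settings, members that rose numbered 80 to 98, and those that fell 10 to 18, with the exception of a minimum log2 change of 1, which left 14 and 1 (23 and 3 for ZNF genes of other chromosomes). Restricting the test to genes above the median level left 10 falls and medians of 0.48 and 0.33 for members and other ZNF genes, since the dim genes near 0 were removed. In the run from ZNF101 to ZNF254 it gave 3 falls and 1 rise. That rise was of a brighter member not called in the main fit. Centring the arrays gave medians of 0.08 and 0.145, and compressing the scale to 16 gave 0.08 and 0.13. Same-numbered treated and control arrays correlated in their deviations at -0.08, 0.04 and -0.05. These values show no shared deviation by number, but cannot exclude that same-numbered samples were handled together. With the replicate block 88 members rose and 13 fell, and 119 and 27 other ZNF genes; treated replicates 1 and 3 did not correlate best with their own number. Leaving out each array gave 84 to 91 rises and 12 to 16 falls, with medians of 0.10 to 0.12. In the list of corepressor and other chromatin genes it gave 3 to 4 rises and 16 to 17 falls. Of the members, 81 rises and 10 falls were called without each array in turn, 10 rises and 6 falls were lost without at least 1, and 20 more were gained. Signs changed for uncalled members near 0: ZNF793 (0.002 with array weights), ZNF229 and ZNF331 (-0.0067 and -0.0033 centred, -0.0028 and -0.0011 with repeated quantile normalization). With arrays left out, ZNF229 ranged from -0.0683 to 0.0867, ZNF793 from -0.0233 to 0.0267, ZNF154 from -0.0817 to 0.0167, ZNF331 from -0.01 to 0.045 and ZNF671 from -0.0617 to 0.1283. The cause was not tested. Signals near 5 are close to background, which limits what dim members can show.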

Other observations

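Rows annotated to several symbols were outside the test, and 9 such rows of chromosome 19 name a ZNF gene. The row shared by ZNF587, a repressor of HERV-K like ZNF417, and ZNF587B had log2 signals of 10.50, 10.52 and 10.64 in treated arrays and 9.76, 9.65 and 9.74 in control arrays, a difference of 0.84. The row of ZNF112 and ZNF285 had 8.16, 8.05 and 8.19 in treated arrays and 7.56, 7.74 and 7.73 in control arrays, a difference of 0.46. The rows naming ZNF761, ZNF846 and ZNF547 were higher in every treated array than in any control array, by 0.19, 0.20 and 0.17. Over all genes tested, every treated array lay above every control array for 27.7% and below for 25.8%. The row of ZNF626 and ZNF100 had 5.75, 5.65 and 5.71 in treated arrays and 5.88, 5.94 and 5.92 in control arrays, a difference of -0.21. ZNF100 also had a row of its own, tested in the run from ZNF101 to ZNF254, with a change of -0.02 that did not pass. The groups overlapped in the rows naming ZNF177, ZNF816 and ZNF540. The second row of ZNF77 differed by 0.32 where the brighter row differed by 0.69, and the second row of ZNF529 by -0.15 where the brighter row differed by 0.07, the ZNF529 groups overlapping in both.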
